A study of Camponotus floridanus with 24 samples.

Results

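The hairpins described here are 60 microRNA precursors of the Florida carpenter ant (Camponotus floridanus) that lie next to each other in the deposited numbering of its scaffolds. Each precursor is named by a scaffold and a running number, and lists a first and a second mature form. Members were chosen by their read counts and their names: a first-listed row needed 10 or more reads in 12 or more of the 24 libraries, counts that were not the same as those of another such row in every library, and another such row on its scaffold at a running-number distance of 5 or less. Of 463 first-listed rows, 234 reached the minimum, 46 of these shared all counts with another row and were dropped, and 60 of the remaining 188 had a neighbour while 128 had none. The 60 members formed 26 clusters on 21 scaffolds, of which 19 had 2 members, 6 had 3 and 1 had 4. They gave 34 adjacent pairs and 43 pairs within a cluster, and the adjacent pairs were 1 number apart in 8 cases, 2 in 14, 3 in 8, 4 in 2 and 5 in 2. The files give no genome position, so the distance in bases between neighbours is not known.

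Many animal microRNAs are encoded in clusters and are transcribed together as one long primary transcript. The nuclear enzyme Drosha cuts each hairpin out of it, Dicer cuts the hairpin into a duplex, and one strand is loaded into an Argonaute protein while the other is mostly degraded. Hairpins of one transcript start with the same transcription rate, but differences in cutting, strand choice and decay can give their mature forms very different levels. In Drosophila the let-7 complex is such a transcript and is switched on as the larva approaches metamorphosis. The names in these files are not paired with microRNA families, so no member can be called by a family name here.

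Small RNA was sequenced from the whole bodies of 24 single female larvae in the terminal stage, the last before pupation. The larvae differ by labelled length, 4648.07 to 7598.06 µm, and carry no treatment, genotype or colony label. Each larva was treated as an independent biological replicate on an axis of length. Whether some larvae share a colony is not known, and the p-values do not allow for it. For display they are divided into smallest, middle and largest classes of 8. The study asked what accompanies worker size, and the comparisons here ask whether neighbouring hairpins vary together from larva to larva, keep their relative levels and change together with length. Libraries held 881734 to 6128791 counted reads. They also fell into sets of 9 and 15 that no label gives, found from the widest gap in the level of any tested form, and that form is the member 2442, so its difference between the sets is given by construction. The set of 9 held 2 smallest, 5 middle and 2 largest larvae and had 881734 to 2114243 reads, against 1638537 to 6128791 in the set of 15. In whole bodies, fewer cells of a type and less RNA per cell cannot be told apart.

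The members included some of the most abundant microRNAs of the larva. Together they held 35.7% ± 2.09 of all counted reads (SD, n = 24), with a range of 31.3% to 41.0%. Their median levels ran from 3.20 to 97800 CPM (counts per 1000000 reads after TMM scaling), with 6 over 10000 CPM, 20 between 1000 and 10000, 15 between 100 and 1000, 11 between 10 and 100 and 8 under 10. The median over members was 572 CPM, beside 27.3 CPM for the 128 forms without a neighbour, a description only because counts chose both groups. Hairpin 18409 of scaffold NW_020229359.1 was the most abundant member, with 62000, 97800 and 159000 CPM as its lowest, median and highest value, and held 10.1% ± 1.95 of the reads (SD, n = 24). Hairpin 5064 of NW_020229237.1 followed with 70600, 90800 and 113000 CPM and 9.15% ± 1.23 of the reads (SD, n = 24). The next were 15814 of NW_020229325.1 at a median of 23700 CPM, and 22881 and 22884 of NW_020229414.1 at 18400 and 15700 CPM. At the count minimum, hairpins 927 and 9049 reached 10 reads in exactly 12 libraries. The nearest gaps outside the distance limit were 6 numbers wide, between 27372 and 27378 and between 42997 and 43003.

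**Figure D1:**
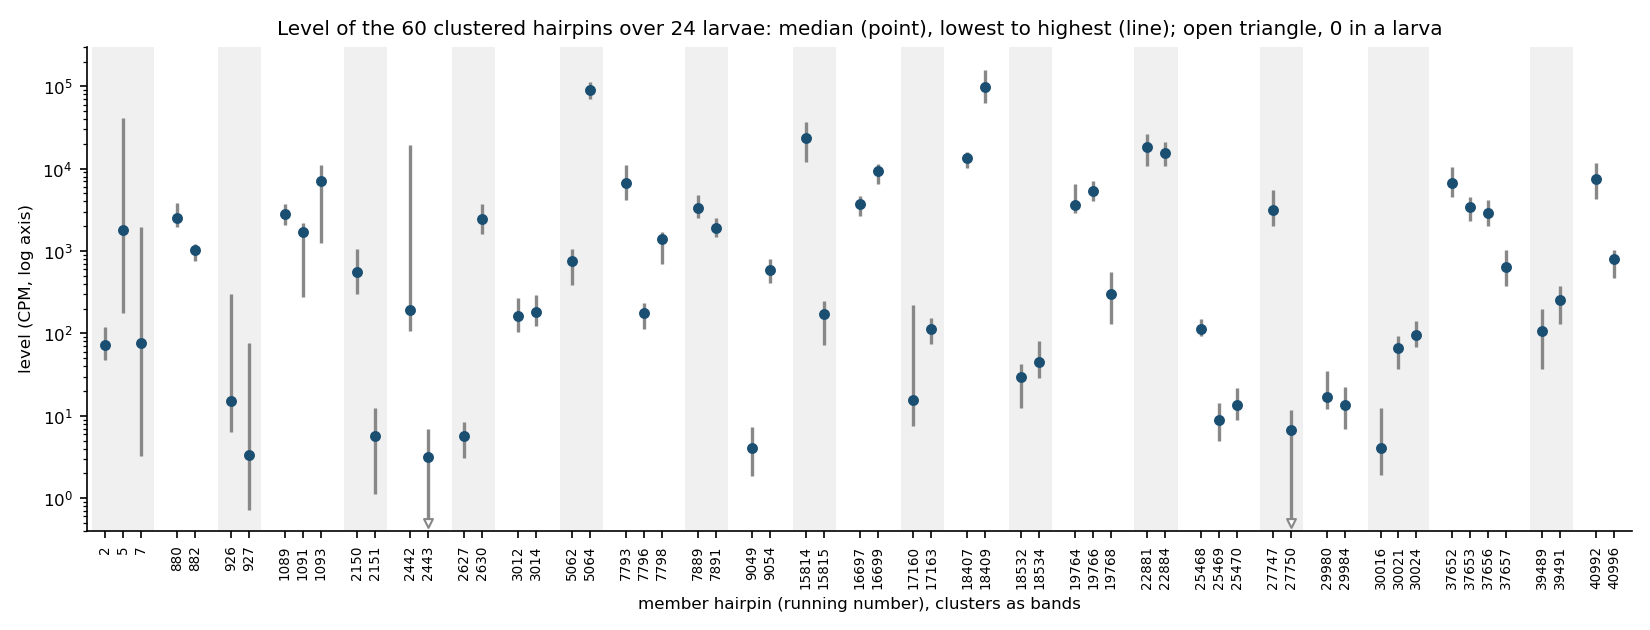
Level of each of the 60 members in CPM on a log axis, by running number, with grey and white bands marking the 26 clusters. Points are medians and lines run from the lowest to the highest of 24 larvae, and levels inside one band often differ by more than 10-fold while most lines are short beside those differences.

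Neighbours often had very unequal levels, and in most pairs their order was stable from larva to larva. In 26 of the 34 adjacent pairs the same member was the higher one in all 24 libraries. The share over all pairs of forms is not given here, so this count does not set neighbours apart from other pairs. The median ratio of the higher to the lower member, taken from the counts within a library, ran from 1.10 to 497, with 13 pairs over 10-fold, 5 of these over 100-fold, and 11 pairs under 2-fold. Hairpin 27747 of NW_020229514.1 exceeded 27750 by a median of 497-fold, and 2630 of NW_020229224.1 exceeded 2627 by 453-fold, with a range of 225 to 706. At the abundant end 5064 exceeded 5062 by 123-fold (range 78.6 to 273), 15814 exceeded 15815 by 133-fold (65.6 to 331) and 18409 exceeded 18407 by 7.34-fold (5.04 to 10.3). The member with the lower running number was the higher one in 18 of 34 pairs. The SD of the log2 ratio over larvae was 0.05 to 3.14, with a median of 0.47.

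The levels of neighbours rose and fell together across larvae more in some clusters than in others. The Pearson correlation of log2 CPM was positive in 29 of 34 adjacent pairs, with a median r of 0.28, beside a median of 0.00 and 49.9% positive over all 17578 pairs of the 188 distinct first-listed forms. By permutation of larvae with Benjamini-Hochberg adjustment over all 17578 pairs, 10 of the 34 adjacent pairs were positively correlated at an adjusted p under 0.05, which is 29.4% of them. Of all pairs 5.93% were called positive and 4.68% negative, and 0 of the 34 adjacent pairs were called negative. At an unadjusted p under 0.05 there were 15 adjacent pairs. All 10 called pairs had a positive r in the set of 9 and in the set of 15 libraries. After removing library set, length and the logarithm of reads from each level, 6 of the 10 remained called.

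**Figure D2:**
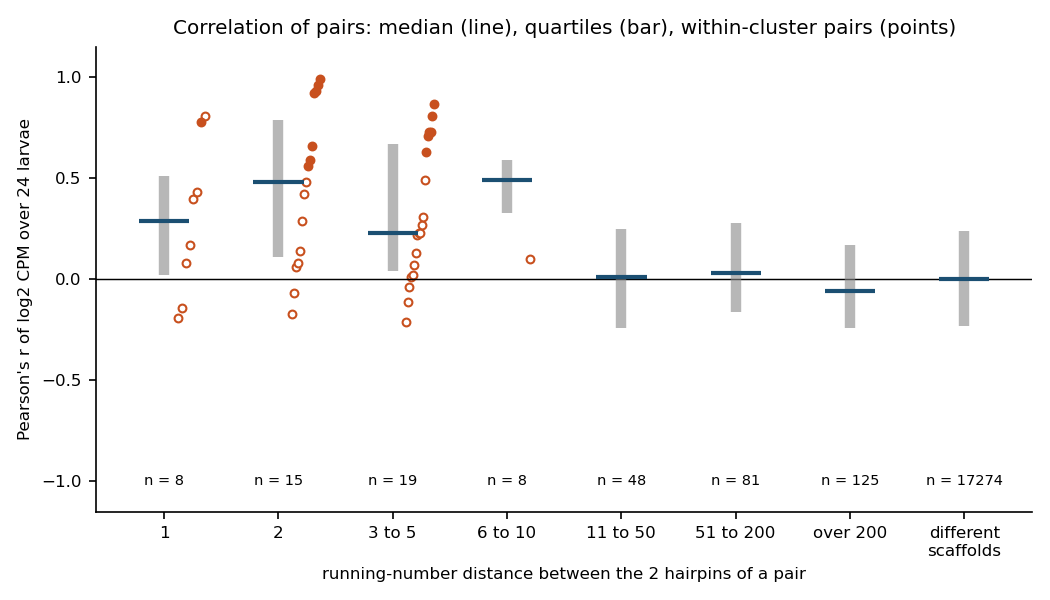
Pearson's r of log2 CPM over 24 larvae for pairs of first-listed forms, by running-number distance on a scaffold and for pairs on different scaffolds, with the number of pairs under each class. Blue lines are medians, grey bars run between the quartiles, and points are the 43 within-cluster pairs, filled where the adjusted p was under 0.05. Medians are 0.29, 0.48 and 0.23 within 5 numbers and near 0 from 11 numbers on.

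Pairs within 10 numbers of each other had a higher median r than pairs farther apart, as the plot of r by running-number distance shows. Over all pairs on a scaffold, the median r was 0.29 at a distance of 1 (8 pairs), 0.48 at 2 (15 pairs), 0.23 at 3 to 5 (19 pairs) and 0.49 at 6 to 10 (8 pairs, 1 of them within a cluster). It was 0.01 at 11 to 50 (48 pairs), 0.03 at 51 to 200 (81 pairs) and -0.06 over 200 (125 pairs), beside 0.00 for 17274 pairs on different scaffolds. Pairs share members and scaffolds, so these medians are a description with no test. Level went with the calls among neighbours and over all forms. Where the scarcer member had 100 CPM or more, 8 of 19 adjacent pairs were called and the median r was 0.42, beside 10.1% called positive of all 3570 pairs at that level. Where it had less, 2 of 15 were called at a median r of 0.27, beside 4.88% of all 14008 such pairs. The difference between the levels was not tested.

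For 12 of the 60 members, or 20%, the form with the highest r among 187 others was a cluster mate, and for 17 it was on the same scaffold. Mates that were each other's closest form were both counted, among them 3012 with 3014 and 926 with 927, whose r has limits given below. Cluster mates make up 0.766% of all combinations of a member with another form. The closest mate ranked among the 10 most similar forms for 27 members, with a median rank of 18.5. Several of the closest partners were far away in the numbering. Hairpins 2 and 579 of NW_020229214.1, 9054 and 9103 of NW_020229273.1 and 30021 and 30112 of NW_020229559.1 each had an r of 1.00, so reads of near-identical copies may be shared within these pairs and their levels are uncertain.

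Hairpins 7889 and 7891 of NW_020229260.1 kept the steadiest relation among the abundant clusters. Hairpin 7889 had 2490, 3370 and 4760 CPM and 7891 had 1470, 1880 and 2530 CPM (lowest, median and highest of 24). Hairpin 7889 was 1.75-fold higher than 7891, within 1.54 to 1.96 in every library. Their r was 0.93 and Spearman's rho 0.93, each with a permutation p of 1e-05, the smallest that 100000 permutations can give, and adjusted p-values of 0.000841 and 0.00120. Within the sets of 9 and 15 the r was 0.86 and 0.88, it was 0.91 without the 2 larvae farthest from the median, and it was 0.87 after removing set, length and reads. The library sets differ here as well, with medians of 3860 against 3060 CPM for 7889 and 2130 against 1790 CPM for 7891 in the sets of 9 and 15.

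Hairpins 5 and 7 of NW_020229214.1 both varied widely, with SDs of 1.90 and 2.22 log2 units, and moved over more than 100-fold together. Only hairpin 2442, which separates the library sets, had a higher SD among the 60 members, 2.91. Hairpin 5 had 626, 1500 and 3720 CPM in the smallest larvae, 177, 899 and 41300 CPM in the middle class and 578, 6380 and 24500 CPM in the largest (lowest, median and highest of 8). Hairpin 7 had 16.4, 56.7 and 239 CPM, 3.29, 33.7 and 1980 CPM, and 20.1, 257 and 1960 CPM in the same order. The classes overlapped for both, larvae 32 and 3 were far above the rest and larva 27 was lowest in both hairpins. The r was 0.96 and rho 0.90 (permutation p = 1e-05 for each, adjusted p = 0.000841 and 0.00120), with r of 0.98 and 0.93 in the sets of 9 and 15 and 0.93 without the 2 farthest larvae. Hairpin 5 was 26.0-fold higher, with a range of 12.5 to 63.5. The third hairpin of the cluster, number 2, was steadier at 48.1 to 119 CPM and had r of 0.23 with 5 and 0.22 with 7, with adjusted permutation p-values of 0.555 and 0.570. Its reads may be shared with hairpin 579, as given above.

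Hairpins 1091 and 1093 of NW_020229214.1 fell together in the same larvae. Hairpin 1091 had 276, 1680 and 2180 CPM in the smallest class, 886, 1720 and 2040 in the middle and 326, 1730 and 2040 in the largest. Hairpin 1093 had 1890, 6990 and 8430 CPM, 3580, 6970 and 10300 CPM, and 1270, 8110 and 11200 CPM. Larvae 51 and 44 were far below the rest in both, and the classes overlapped. The r was 0.92 with a rho of 0.68 (permutation p = 1e-05 and 0.00038, adjusted p = 0.000841 and 0.0104), 0.87 and 0.95 within the sets and 0.75 without the 2 farthest larvae. Hairpin 1089, 2 numbers before them, had 2050 to 3750 CPM with no such low larvae, and its r was 0.06 with 1091 and -0.21 with 1093 (adjusted permutation p = 0.903 and 0.605).

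**Figure D3:**
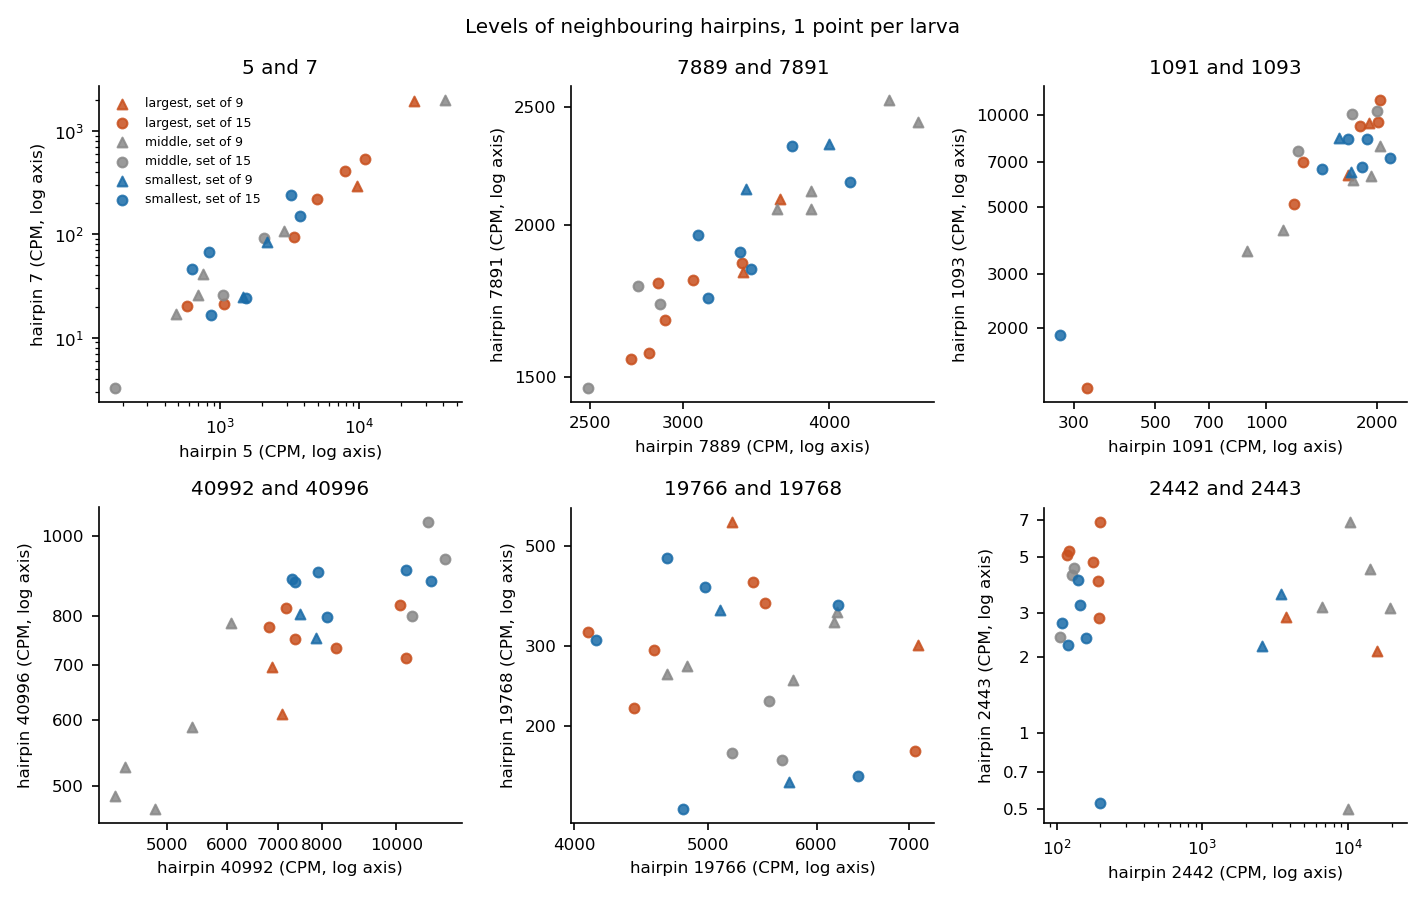
Levels of 6 pairs of neighbouring hairpins in CPM on log axes, with 1 point per larva, coloured by size class and shaped by library set (triangles, set of 9, and circles, set of 15). In the first 4 panels the points rise together, with r of 0.96, 0.93, 0.92 and 0.81, and in the last 2, hairpins 19766 with 19768 and 2442 with 2443, they do not. A larva with 0 reads of 2443 is drawn at 0.5 CPM.

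Of 3 other adjacent pairs with an r over 0.80, 2 passed the test. Hairpins 3012 and 3014 of NW_020229226.1 had an r of 0.99 and a rho of 0.97 (permutation p = 1e-05 for each, adjusted p = 0.000841 and 0.00120). Their ratio stayed within 1.05 to 1.20 with an SD of 0.05 log2 units, so shared reads of near-identical copies may set it. The name 3014 also occurs among the rows dropped for sharing all counts with another row, as does a hairpin numbered between these members. Which rows those shared their counts with is not given here. The pair is still counted among the called adjacent pairs. Hairpins 40992 and 40996 of NW_020229856.1, at medians of 7420 and 792 CPM, had r = 0.81 and rho = 0.72 (permutation p = 1e-05 and 0.00013, adjusted p = 0.000841 and 0.00534). That r was 0.85 in the set of 9, 0.35 in the set of 15 and 0.71 without the 2 farthest larvae, and after removing set, length and reads it was 0.57 with an adjusted p of 0.0597. Hairpins 926 and 927 of NW_020229214.1 had r = 0.81 and rho = 0.47 (permutation p = 0.00746 and 0.0214, adjusted p = 0.0623 and 0.131) and did not pass. That r rests on larva 40, in which they had 297 and 75.9 CPM beside medians of 15.0 and 3.30 CPM, and it was 0.19 without that larva, -0.33 in the set of 9 and 0.95 in the set of 15.

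In the cluster 7793, 7796 and 7798 of NW_020229259.1, the most abundant member, 7793, moved with each of the others. It had r of 0.71 with 7796 and 0.73 with 7798 (permutation p = 0.00014 and 7e-05, adjusted p = 0.00439 and 0.00281, rho = 0.69 and 0.79 with adjusted p = 0.00821 and 0.00243). These r values were 0.93 and 0.64, and 0.59 and 0.68, in the sets of 9 and 15, and 0.74 and 0.71 without the 2 farthest larvae. For 7796 and 7798 the r was 0.48 with an adjusted permutation p of 0.104. After removing set, length and reads, 7793 with 7798 kept an r of 0.58 (adjusted p = 0.0495), while 7793 with 7796 had 0.32 (adjusted p = 0.386). Hairpin 7793 exceeded 7796 by 39.8-fold (24.7 to 52.2) and 7798 by 5.12-fold (3.66 to 7.66). Hairpin 7798 itself had 900, 1140 and 1540 CPM in the smallest class, 695, 1540 and 1720 in the middle and 925, 1400 and 1580 in the largest, with overlapping classes.

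Hairpins 25468, 25469 and 25470 of NW_020229459.1 are consecutive and scarce, and 25470 moved with each of the others. Hairpin 25468 had 93.9, 107 and 131 CPM in the smallest class, 100, 115 and 121 in the middle and 110, 122 and 151 in the largest. Hairpins 25469 and 25470 had 4.89 to 14.5 and 9.01 to 21.7 CPM over all larvae, with class medians of 8.0, 9.04 and 8.96 CPM and of 11.9, 13.7 and 15.8 CPM. The r was 0.78 for 25469 with 25470 and 0.66 for 25468 with 25470 (permutation p = 1e-05 and 0.00035, adjusted p = 0.000841 and 0.00814, rho = 0.74 and 0.76 with adjusted p = 0.00311 and 0.00175). It was 0.81 in both sets for the first pair, 0.71 and 0.77 in the sets of 9 and 15 for the second, and 0.72 and 0.75 without the 2 farthest larvae. For 25468 with 25469 the r of 0.43 had an adjusted permutation p of 0.171.

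The remaining called pairs were weaker. Hairpins 22881 and 22884 had r = 0.63 and rho = 0.57 (permutation p = 0.00084 and 0.00457, adjusted p = 0.0148 and 0.0514), with 0.75 and 0.52 in the sets of 9 and 15 and 0.47 without the 2 farthest larvae. Without larva 15 that r was 0.52 with an adjusted p of 0.0836, and after removing set, length and reads it was 0.25 with an adjusted p of 0.524. Hairpins 18407 and 18409 had r = 0.59 and rho = 0.51 (permutation p = 0.00237 and 0.0117, adjusted p = 0.0297 and 0.0906), with 0.47 and 0.66 in the sets and 0.58 without the farthest larvae. The call was lost without larva 48, 51 or 62, at r of 0.55, 0.57 and 0.53, without scaling factors, at r = 0.36, and after removing set, length and reads, at r = 0.53 with an adjusted p of 0.0814. Hairpins 39489 and 39491 of NW_020229849.1 had r = 0.56 and rho = 0.55 (permutation p = 0.00420 and 0.00652, adjusted p = 0.0433 and 0.0637), with 0.18 and 0.73 in the sets and 0.45 without the farthest larvae. Leaving out 1 larva ended that call in 12 of 24 cases, with larva 51 giving the highest adjusted p, 0.118 at r = 0.49. After removing set, length and reads the r was 0.71 with an adjusted p of 0.00717.

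Other clusters showed no correlation past the threshold. Hairpins 19764, 19766 and 19768 of NW_020229370.1 had r of 0.42, -0.17 and 0.31 for the first with the second, the second with the third and the first with the third (adjusted permutation p = 0.181, 0.687 and 0.376). Hairpin 19766 had 4150, 5040 and 6430 CPM, 4670, 5600 and 6210 CPM, and 4090, 5300 and 7110 CPM in the smallest, middle and largest classes, which overlapped. Hairpin 19768 had 131, 336 and 470 CPM, 168, 256 and 357 CPM, and 176, 311 and 564 CPM. Hairpins 30016, 30021 and 30024 of NW_020229559.1 had r of 0.07, 0.23 and 0.10 in the same order (adjusted permutation p = 0.894, 0.550 and 0.840). Reads of 30021 may be shared with 30112, as given above. Hairpin 30016 had class medians of 3.74, 4.26 and 5.34 CPM within 1.90 to 12.6, 30021 had 69.8, 58.0 and 62.2 CPM within 36.9 to 93.3, and 30024 had 102, 105 and 87.9 CPM within 68.9 to 141, so the classes overlapped for all 3.

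Members of the same cluster could also differ in how they followed the library sets. Hairpin 2442 of NW_020229223.1 had 2580 CPM or more in the set of 9, with a median of 9950, and 199 CPM or less in the set of 15, while its neighbour 2443 had medians of 3.15 and 4.02 CPM. No correlation over all larvae is printed for this pair because 2442 falls into separate clusters of libraries. The pair is still part of the counts and the median r of the adjacent pairs. The r was 0.00 within the set of 9 and -0.11 within the set of 15. Hairpin 17160 of NW_020229336.1 had medians of 183 CPM in the set of 9 and 13.5 CPM in the set of 15, and its neighbour 17163 had 131 and 108 CPM. The sets were defined by 2442, so its separation of them is given by construction. Hairpin 17160, on a different scaffold from 2442, also separated the sets without overlap (at least 23.6 CPM against at most 23.2 CPM). What made the libraries differ was not tested.

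The 4 hairpins of NW_020229841.1 split into alternating pairs. Hairpins 37652 and 37656 had r = 0.87 and rho = 0.87 (permutation p = 1e-05 for each, adjusted p = 0.000841 and 0.00120), with 0.63 and 0.90 in the sets of 9 and 15 and 0.82 without the 2 farthest larvae. Hairpins 37653 and 37657 had r = 0.73 and rho = 0.76 (permutation p = 7e-05 and 4e-05, adjusted p = 0.00281 and 0.00243), with 0.70 and 0.77 in the sets and 0.74 without the farthest larvae. Direct neighbours among these members had r of -0.14 for 37652 and 37653, 0.02 for 37653 and 37656 and 0.08 for 37656 and 37657 (adjusted permutation p = 0.747, 0.979 and 0.871). Hairpin 37652 was 2.33-fold above 37656 (1.79 to 2.91) and 37653 was 5.06-fold above 37657 (3.69 to 6.98). After removing set, length and reads, the alternating pairs kept r of 0.59 and 0.62 (adjusted p = 0.0453 and 0.0248), and 37652 with 37657 had -0.58 (adjusted p = 0.0472).

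The second-listed forms of these 4 hairpins all moved together. Each of their 6 pairs was positively correlated, with r from 0.58 to 0.86 and adjusted permutation p from 0.000941 to 0.0317. By rank, 37652 with 37656 did not pass, at a rho of 0.49 with an adjusted permutation p of 0.117. Set, length and reads were not removed from second-listed forms, and all 4 had negative slopes on length. Direct neighbours had r of 0.58, 0.86 and 0.72, which was 0.51 and 0.65, 0.78 and 0.93, and 0.12 and 0.82 in the sets of 9 and 15, and 0.57, 0.80 and 0.57 without the 2 farthest larvae. Their rho was 0.59, 0.79 and 0.61 (permutation p = 0.00297, 3e-05 and 0.00175). The second-listed form of 37656 followed the first-listed form of 37657 (r = 0.89, rho = 0.88, permutation p = 1e-05 for each) and of 37653 (r = 0.78, rho = 0.78, permutation p = 2e-05 and 3e-05), but had r = 0.26 with the first-listed form of its own hairpin (adjusted permutation p = 0.483). Within the sets these r values were 0.92 and 0.94, 0.77 and 0.86, and 0.24 and 0.23, and without the 2 farthest larvae 0.87, 0.79 and 0.09. Second-listed forms held a median of 37%, 1.72%, 20.4% and 9.88% of the reads of hairpins 37652, 37653, 37656 and 37657.

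**Figure D4:**
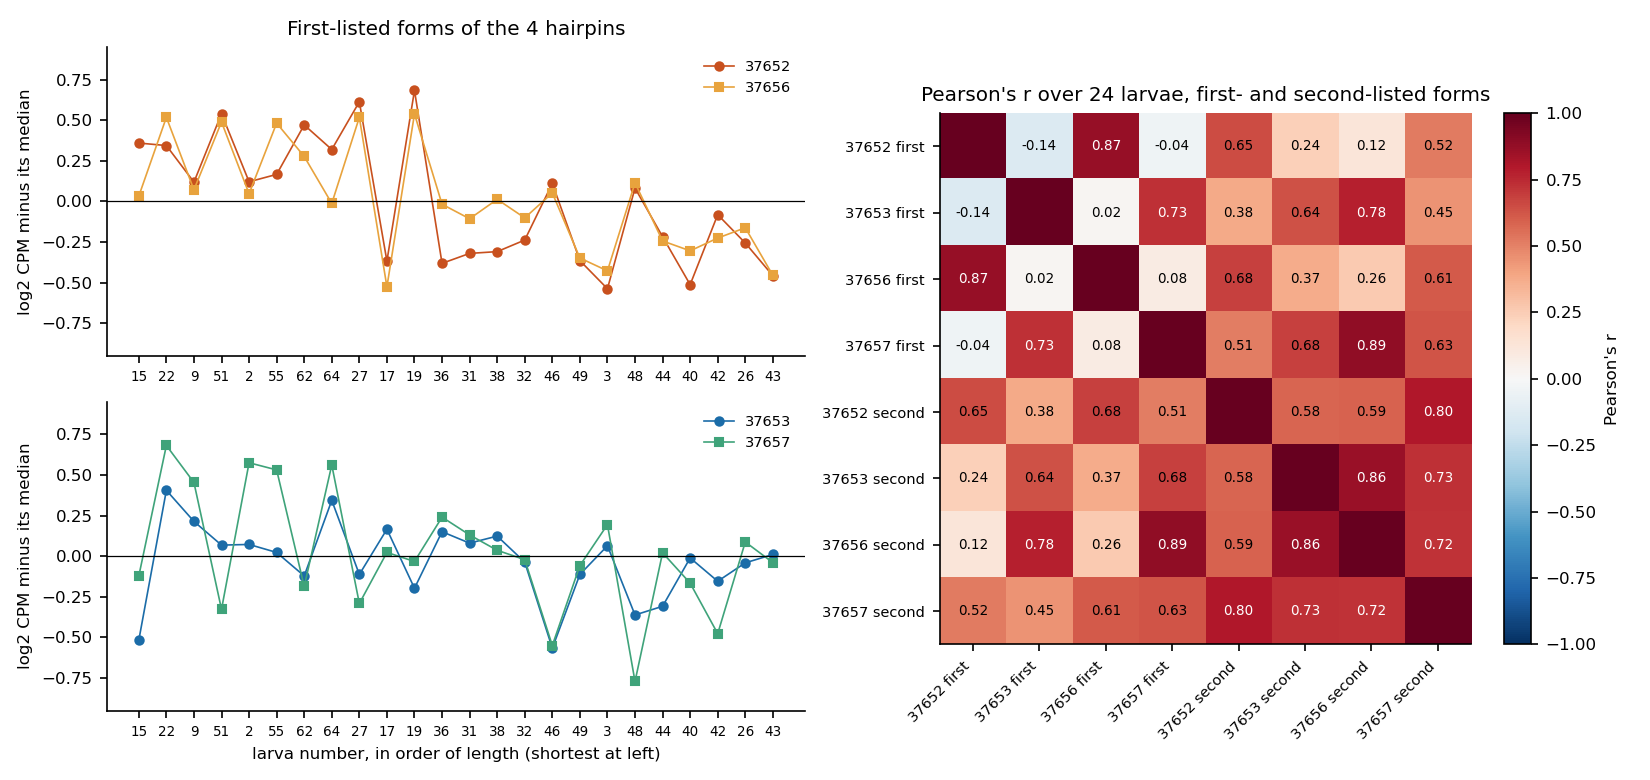
The 4-member cluster of NW_020229841.1: left, log2 CPM of each first-listed form minus its median, by larva in order of length, with 37652 and 37656 above and 37653 and 37657 below; right, Pearson's r over 24 larvae for all pairs of first- and second-listed forms. Lines of one panel follow each other, while first-listed forms of direct neighbours have r of -0.14, 0.02 and 0.08.

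Some members were more abundant in longer larvae and others in shorter ones. In the edgeR quasi-likelihood fit of all 336 tested forms, 9 of the 60 members rose with length and 5 fell at a Benjamini-Hochberg adjusted p under 0.05. Over all 336 forms 11.6% rose and 8.93% fell, 20.5% in either direction, and the members' 14 of 60 stands beside that. Without scaling factors the balance turned, with 3 members rising and 7 falling, beside 7.14% and 12.2% of all forms. The rising calls kept there were 7796, 15815 and 22881, all 5 falling calls were kept, and 30024 and 37657 were called falling as well. Of the 128 forms without a neighbour 14 rose and 10 fell. The median slope of the members was 0.04 log2 units per 1000 µm, beside 0.02 for all tested forms, and the median size of a slope was 0.13 and 0.12. The called members lay in 11 clusters, and 3 of these clusters had 2 called members: 7793 with 7796, 22881 with 22884 and 37652 with 37656.

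Among the rising members, the abundant hairpin 22881 had the smallest adjusted p. Its level was 10800, 16700 and 18600 CPM in the smallest class, 16000, 18100 and 22100 in the middle and 20700, 22500 and 26600 in the largest, so the smallest and largest classes did not overlap. The slope was 0.27 ± 0.0426 log2 units per 1000 µm (SE, n = 24, adjusted p = 8.4e-05), or 1.73-fold over the range of lengths. Its neighbour 22884 had a slope of 0.14 ± 0.0524 (adjusted p = 0.0487), and the second-listed form of 22884 rose by 0.36 ± 0.0488 (adjusted p = 2.2e-05), from class medians of 465 to 666 and 786 CPM.

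Hairpins 7796 and 7793 rose by the same slope at very different levels. Hairpin 7796 had 112, 134 and 186 CPM, 144, 175 and 234 CPM, and 170, 210 and 224 CPM in the 3 classes, which overlapped, and a slope of 0.24 ± 0.0531 (adjusted p = 0.00153). Hairpin 7793 had 4120, 5230 and 6960 CPM, 5070, 8220 and 11000 CPM, and 5720, 7100 and 10600 CPM, and a slope of 0.24 ± 0.0823 (adjusted p = 0.0390). The slope of 7798 was 0.06 ± 0.0779 (adjusted p = 0.661).

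Hairpin 15815 rose from 72.9, 98.0 and 178 CPM in the smallest class to 156, 205 and 239 in the middle and 149, 183 and 247 in the largest, with a slope of 0.33 ± 0.0914 (adjusted p = 0.0115). Its second-listed form rose with it by 0.31 ± 0.0765 (adjusted p = 0.00467). The far more abundant neighbour 15814 had 0.20 ± 0.0906 (adjusted p = 0.135). Hairpin 2 rose from 49.4, 53.1 and 80.2 CPM to 48.1, 75 and 119 and to 70.5, 77.8 and 97.7 CPM, with overlapping classes and a slope of 0.24 ± 0.0693 (adjusted p = 0.0167), and its second-listed form rose by 0.29 ± 0.0856 (adjusted p = 0.0197). Its neighbours 5 and 7 had the steepest slopes of any member, 1.26 ± 0.469 and 1.48 ± 0.562, but neither passed (adjusted p = 0.0582 and 0.0640). Reads of hairpin 2 may be shared with 579, as given above, so its level and slope are uncertain.

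Hairpin 39491 had a slope of 0.21 ± 0.0701 (adjusted p = 0.0390) while its neighbour 39489 had -0.13 ± 0.126 (adjusted p = 0.568). Hairpin 19764 had 2930, 3470 and 4140 CPM, 2910, 3570 and 6030 CPM, and 3470, 4570 and 6500 CPM in the 3 classes, which overlapped, and a slope of 0.18 ± 0.0658 (adjusted p = 0.0462). Hairpin 926 had a slope of 0.81 ± 0.274 (adjusted p = 0.0411) that rests on larva 40: without it the slope was -0.03 with an adjusted p of 0.90.

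Among the falling members hairpin 18532 of NW_020229359.1 had the steepest slope. It had 29.1, 38.3 and 42.8 CPM in the smallest class, 16.7, 30.1 and 41.6 in the middle and 12.5, 22.3 and 28.9 in the largest, so the smallest and largest classes did not overlap. Its slope was -0.39 ± 0.0697 (SE, n = 24, adjusted p = 0.000265). The neighbour 18534 had -0.14 ± 0.0807 (adjusted p = 0.259). This hairpin also had the highest share of second-listed reads of any member, a median of 56.4%.

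The alternating pair 37652 and 37656 fell together. Hairpin 37652 had 7170, 8310 and 9600 CPM, 5070, 5460 and 10600 CPM, and 4550, 5330 and 6990 CPM in the smallest, middle and largest classes, with no overlap between smallest and largest, and a slope of -0.28 ± 0.0648 (adjusted p = 0.00304). Hairpin 37656 had 2840, 3240 and 4100 CPM, 1990, 2860 and 4160 CPM, and 2090, 2370 and 3100 CPM, with overlap, and a slope of -0.23 ± 0.0591 (adjusted p = 0.00605). Hairpin 37653 had class medians of 3570, 3460 and 3230 CPM within 2300 to 4510, and hairpin 37657 of 913, 649 and 627 CPM within 380 to 1040. Their slopes were -0.08 ± 0.0537 and -0.19 ± 0.0711 (adjusted p = 0.325 and 0.0561). Among second-listed forms, those of 37652, 37656 and 37657 fell by 0.27, 0.22 and 0.32 (adjusted p = 9e-05, 0.0390 and 0.00384), and that of 37653 had -0.23 ± 0.106 (adjusted p = 0.138).

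Hairpin 880 of NW_020229214.1 fell from 2510, 2970 and 3800 CPM to 2070, 2410 and 3440 and to 1980, 2240 and 2610 CPM in the 3 classes, with a slope of -0.19 ± 0.0480 (adjusted p = 0.00642). Its neighbour 882 had -0.04 ± 0.0471 (adjusted p = 0.679). The form most similar to 880 over all larvae was 37652, on another scaffold. Hairpin 27747 fell by 0.23 ± 0.0796 (adjusted p = 0.0415) and its scarce neighbour 27750 had 0.03 ± 0.129 (adjusted p = 0.884).

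The calls of 880, 7796, 15815, 18532, 22881, 37652 and 37656 held in all 24 fits that left out 1 larva. Those of 2, 27747, 926, 39491, 7793, 19764 and 22884 were lost in 2, 6, 11, 15, 16, 18 and 18 of the 24, with the highest adjusted p at 0.0704 without larva 22, 0.100 without larva 15, 0.90 without larva 40, 0.152 and 0.127 without larva 51, 0.160 without larva 22 and 0.195 without larva 26.

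**Figure D5:**
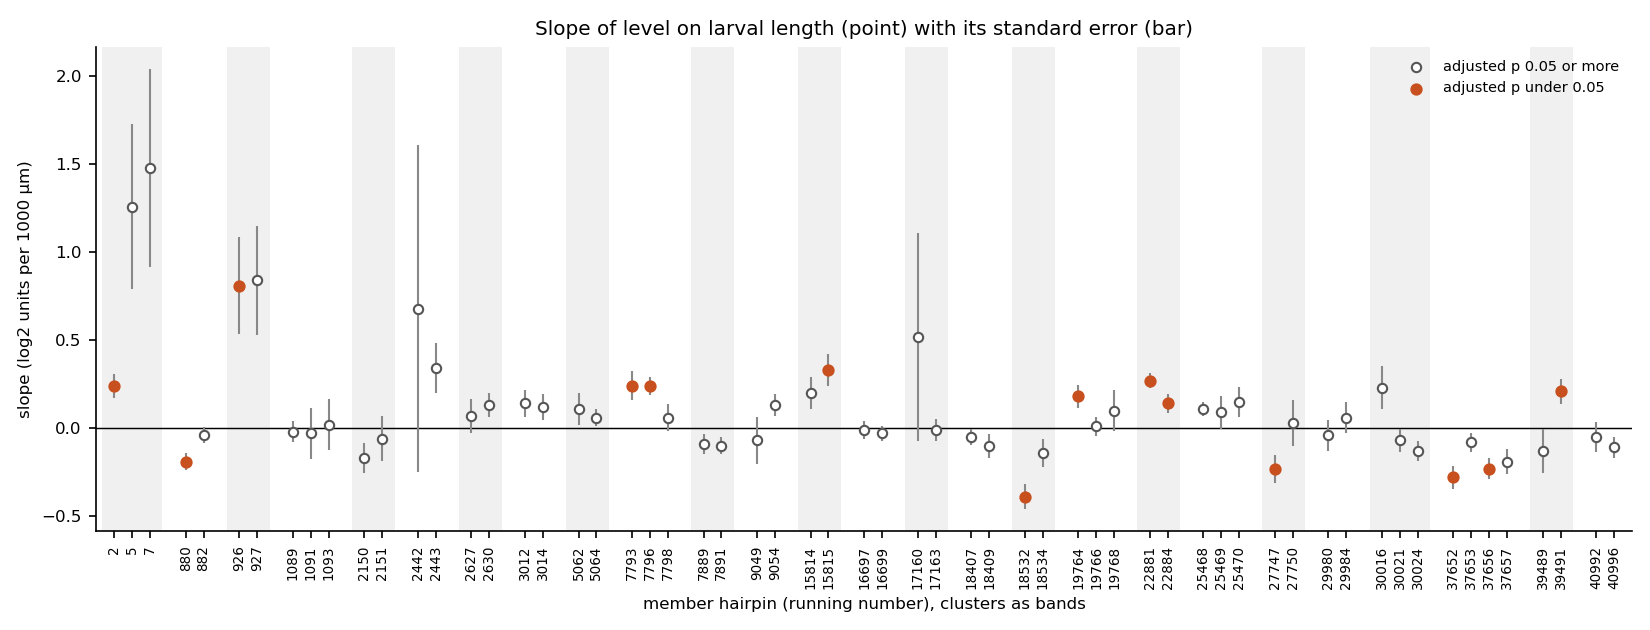
Slope of level on larval length for the 60 members, in log2 units per 1000 µm, with bands marking clusters. Bars are standard errors derived from the F statistic of the edgeR fit. Filled points have an adjusted p under 0.05, and within most bands the points lie on one side of 0.

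Slopes within a cluster mostly had the same sign. Both slopes had one sign in 27 of 34 adjacent pairs, or 79.4%, beside 50.4% of all pairs of distinct first-listed forms, and neighbours' slopes differed by a median of 0.11. The ratio of neighbours changed with length in 0 of the 34 adjacent pairs and 0 of the 43 within-cluster pairs by limma with Benjamini-Hochberg adjustment over all 17578 pairs, of which 17.2% were called. At an unadjusted p under 0.05 there were 5 of 34 and 7 of 43, beside 30.1% of all pairs. The smallest adjusted p belonged to 18532 over 18534, whose log2 ratio changed by -0.28 ± 0.101 per 1000 µm (adjusted p = 0.0542), and with library set in the fit its adjusted p was 0.0464. For 39489 over 39491 the change was -0.28 ± 0.106 (adjusted p = 0.0668), and without larva 51 the adjusted p was 0.0100. Pairs with a scarce member left wide errors: for 27747 over 27750 the slope of the ratio was -0.24 ± 0.208.

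The second-listed forms offered a separate reading of the same clusters, since they did not enter the choice of members. Of the 60 members, 37 had a second-listed form above the count minimum, and 6 of these rose and 4 fell with length in the same edgeR fit, beside 9.71% and 10.7% of all 103 second-listed forms tested. Both forms were called in 6 members. Where first- and second-listed forms differed, hairpin 1089 stood out, with a first-listed slope of -0.02 ± 0.0578 and a second-listed slope of 0.41 ± 0.104 (adjusted p = 0.835 and 0.00637). The second-listed form of 30021 fell by 0.42 ± 0.143 (adjusted p = 0.0411) at a median of 5.62 CPM, and that of 7 rose by 1.43 ± 0.502 (adjusted p = 0.0461). The second-listed share of a hairpin's reads had a median of 1.35%.

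In 17 adjacent pairs both second-listed forms were above the minimum. Their median r was 0.58, beside 0.23 for the first-listed forms of the same pairs and 0.02 for 4371 pairs of second-listed forms. Second-listed forms that shared all counts with another were left out of those pairs unless they belonged to a member. Of the 17, 14 were positive and 8 were called by permutation with Benjamini-Hochberg adjustment, beside 5.42% of the 4371 pairs called positive. Library set, length and reads were not removed from these levels. First-listed forms with the second-listed forms of their neighbours were called positive in 14 of 43 combinations, and a member with its own second-listed form in 14 of 37, beside 6.09% of all pairs of a first- with a second-listed form.

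Several abundant pairs were correlated in their second-listed forms and not in their first-listed forms. Hairpins 16697 and 16699 of NW_020229326.1 had r = 0.91 and rho = 0.76 for second-listed forms (permutation p = 1e-05 for each), with 0.93 and 0.88 in the sets of 9 and 15 and 0.83 without the 2 farthest larvae, and r = 0.14 for first-listed forms (adjusted permutation p = 0.749). Their first-listed medians were 3760 and 9460 CPM and their second-listed medians 36.3 and 35.5 CPM. Hairpins 15814 and 15815 had r = 0.75 and rho = 0.67 for second-listed forms (permutation p = 6e-05 and 0.00059), with 0.89 and 0.86 in the sets and 0.64 without the farthest larvae, and 0.17 for first-listed forms (adjusted permutation p = 0.679). For 5062 and 5064 the second-listed r was 0.63 and rho 0.59 (permutation p = 0.00091 and 0.00279), but 0.31 and 0.29 within the sets, 0.51 without the farthest larvae, and -0.07 for first-listed forms. Other pairs were called in their first-listed forms only. Their first- and second-listed r was 0.71 and -0.04 for 7793 and 7796, and 0.63 and 0.05 for 22881 and 22884. It was 0.56 and -0.1 for 39489 and 39491, and 0.59 and 0.39 for 18407 and 18409. For 40992 and 40996 it was 0.81 and 0.62, and the second-listed r had an adjusted permutation p of 0.0535. The difference between first- and second-listed correlations was not tested.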

How the data were processed

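Read counts of small RNA from 24 larvae were used. Per the labels' protocols, libraries were made from 1000 ng of total RNA with a TruSeq small RNA kit, and the submitters' processing notes name bcl2fastq 2.20 and Trim Galore 0.6.7. Which programs aligned and counted the reads, and against which genome build, is not given in the sources used here. The deposited tables give whole-number counts and RPM, the count per 1000000 counted reads by the authors, and the counts were used for every test. Rows of one name within a block were collapsed to their maximum. The members and lists were chosen with earlier results of these data known.

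Forms with 10 or more reads in 12 or more libraries (336) were tested. Slopes used edgeR 4.0.16 (TMM, quasi-likelihood F test) on length per 1000 µm in R 4.3.3. The SE of a slope is its size divided by the square root of the F statistic. Ratios of forms were tested with limma 3.58.1 after adding 0.5 to each count and taking log2. Correlations used log2 CPM with a prior count of 2 and two-sided permutation tests with 100000 resamples (numpy 2.4.6). Benjamini-Hochberg adjustment at 0.05 covered all forms, or all 17578 pairs of distinct first-listed forms. Where a second-listed form entered, it covered all pairs of the first- and second-listed forms kept for correlation. DESeq2 1.42.0 was an alternative. The main slope, ratio and Pearson correlation steps were tested on simulated counts that held no library-set effect and no outlying larvae. The alternative settings, Spearman's rho and the correlations of second-listed forms were not tested in this way. Ratios given as medians are of counts within a library. Named hairpins were those in clusters of 3 or more or with a called slope or ratio, the pairs with the 3 highest and 3 lowest r and the clusters of the 5 most abundant members. Others named were chosen after their values were seen. Identifiers are not paired with microRNA names, and no sequence was analysed here. Reads are not independent molecules, and a count of 0 allows a level of 3 counts, which is 0.489 CPM at the highest depth and 3.40 CPM at the lowest (counting error only).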

Additional observations from a re-analysis of the deposited data

Results flagged for a closer look

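Each member was searched in each size class of 8 for a larva whose gap to its nearest value was large beside the range of the class (Dixon's test). Of 180 sets of 8 values, 18 had such a larva, or 10%, beside 8.23% of 1008 sets over all tested forms. Chance gives about 1 in 20 where values are normally distributed, and CPM need not be. On log2 CPM the shares were 7.78% and 6.65%. Values of hairpins 2442 and 17160 also fall into the 2 library sets within a class.

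Larva 32 held 4 of the 18. It was high in hairpin 5 (41300 CPM, others of its class 177 to 2860), hairpin 7 (1980 CPM, others 3.29 to 108), hairpin 19764 (6030 CPM, others 2910 to 4030) and hairpin 30016 (12.6 CPM, others 1.90 to 6.84). Larva 3 held 3 and was high in hairpin 5 (24500 CPM, others 578 to 10900), hairpin 7 (1960 CPM, others 20.1 to 537) and hairpin 2442 (15900 CPM, others 117 to 3750). Larva 48 held 3 and was low in hairpin 7796 (170 CPM, others 201 to 224) and high in hairpin 27747 (4680 CPM, others 2030 to 3080) and hairpin 37656 (3100 CPM, others 2090 to 2560).

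Larva 40 was high in both hairpins 926 and 927, with 297 CPM (others 11.1 to 19.4) and 75.9 CPM (others 0.722 to 4.55). Larva 51 was low in both hairpins 1091 and 1093, with 276 CPM (others 1420 to 2180) and 1890 CPM (others 6490 to 8430). Single values stood apart for hairpin 2 in larva 55 (80.2 CPM, others 49.4 to 61.5), hairpin 2150 in larva 19 (1060 CPM, others 334 to 591), hairpin 16699 in larva 2 (6500 CPM, low, others 9180 to 11400) and hairpin 17160 in larva 9 (47.9 CPM, others 9.31 to 23.6). Why these larvae stood apart was not tested.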

How the results depend on the processing

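The number of rising members was 9 and moved most: 3 without scaling factors, 4 with no count filter, 1 in the set of 9 alone, 3 in the set of 15 alone and 3 to 12 when 1 larva was left out. The 5 falling members became 7 without scaling factors, 3 in the set of 9 alone and 4 to 8 without 1 larva. The fits within a set were added after seeing the data and have fewer larvae. The slope of 926, 0.81, was -0.10 in the set of 9 and -0.03 to 0.87 without 1 larva, lowest without larva 40. Of the 14 calls, DESeq2 kept 14, DESeq2 size factors, first-listed forms only and library set as a covariate 13 each, log10 reads 11, set and log10 reads together 10, no scaling factors and no count filter 8 each, the set of 15 alone 7 and the set of 9 alone 3. The 10 correlated adjacent pairs became 6 after removing set, length and log10 reads, 9 after removing set, and 8 to 11 without 1 larva. They became 7 by Spearman's rho and 13 without scaling factors. In the set of 15 alone 7 pairs were called, and 6 of the 10 calls were kept. The 0 changed ratios became 1 with a pseudocount of 5, 1 with library set, 2 with log10 reads and 0 to 1 without 1 larva. A running-number distance of 1 left 7 clusters with 15 members. The causes of these changes were not tested. No paired analysis was possible because the size classes share no larva numbers. Depth limits the 8 members under 10 CPM, where a single library's floor reaches 3.40 CPM.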
